A study of Rattus norvegicus with 14 samples.

Results

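The comparison described here set rat thyroid cells that carried the PAX8-PPARG fusion protein (PPFP) against cells that carried the empty vector (EV), with pioglitazone given to both. It used 6 of the 14 samples of the series, namely 3 RNA-seq libraries of PPFP cells and 3 of EV cells, and it asked which functions and gene families differed when the fusion protein was present together with its ligand. Both were PCCL3 cells, a differentiated rat thyroid follicular line grown with thyrotropin (TSH), insulin, hydrocortisone, transferrin and fetal bovine serum, and both received 1 µM pioglitazone from a DMSO stock for 16 h. PPFP cells were stably transfected with a myc-tagged human fusion, and EV cells with the vector alone. Each condition came from a single transfected line, so an effect of the fusion and any other difference between the 2 lines cannot be told apart, and whether each line grew from 1 clone is not given in the sources used here. The same pair of lines was also sequenced with vehicle in place of pioglitazone, which makes 12 RNA libraries in all. Of 16816 genes in the count table, 3815 had no count in the 6 libraries, and the 10291 that passed a filter on low counts were tested.

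PPFP joins the DNA-binding part of PAX8, a transcription factor that thyroid follicular cells need for their differentiated functions, to nearly all of PPARG, the nuclear receptor that directs fat cell formation and lipid storage. The fusion arises from a chromosomal translocation in a subset of follicular thyroid carcinomas. Pioglitazone is a thiazolidinedione, a class of diabetes drugs that bind and activate PPARG, and it binds the ligand pocket that the fusion retains. PPARG acts on DNA as a heterodimer with a retinoid X receptor, and its best known targets package triglyceride into droplets, take up and burn fatty acids, and handle glycerol.

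Total counts ran from 27711659 to 35240176 in the EV libraries and from 27758562 to 30915433 in the PPFP libraries. The first principal component, which separated the lines, held 89.9% of the variance over the 6 libraries. The PPFP libraries 2 and 3 stood apart from every other pair: their counts were not identical, but the chi-square statistic per degree of freedom between them was 1.7, against 44.9 to 113 for the other pairs within the groups of this comparison. The labels give them as separate samples, and with their counts averaged as 1 sample the number of genes called was 2049 in place of 2026, of which 1938 were shared. Whether they are the same RNA sequenced as 2 libraries cannot be told from the files, and if so the PPFP group holds 2 independent samples and the errors given here are too small. The labelled state of the cells was checked against markers fixed for this purpose. The summed level of 11 thyrocyte markers was 10800 to 14100 CPM (the count scaled to the depth of its library) in EV libraries and 10000 to 10200 in PPFP libraries, most of it from Tg, with Krt18 near 0 in both. Of the 10 tested, 4 were called lower and 2 higher, with a median log2 fold change of -0.64. Of 9 macrophage markers, 8 had at most 3 counts in every library, and the sums were 0.405 to 0.862 CPM in EV and 1.13 to 1.46 in PPFP cells. Among 7 markers of C cells, the other endocrine cell of the thyroid, 5 were at this floor and the sum was 6.62 to 8.5 CPM in EV and 0.149 to 0.431 in PPFP cells, nearly all of it from Ret, and its part in the results was not tested. Of 8 fibroblast markers 5 were at the floor, with sums of 23.1 to 24.1 and 26 to 34.5 CPM, and of 6 endothelial markers 3 were, with sums of 0.215 to 0.891 and 0.97 to 1.29 CPM.

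Pparg, the gene of the receptor that the fusion carries, was higher in PPFP cells. It stood at 1.51, 2.81 and 1.36 CPM in the EV libraries and at 50.7, 59 and 61.2 CPM in the PPFP libraries. Every PPFP library was above every EV library, and the log2 fold change was 4.94 ± 0.26 (SE, adjusted p = 1.3e-05). The counts are of reads placed on rat genes, so reads of the human transgene and of the endogenous gene cannot be told apart. Pax8 was at 681, 791 and 710 CPM in EV and 540, 554 and 540 CPM in PPFP cells. Its log2 difference of -0.39 ± 0.09 (adjusted p = 0.007) stayed within 2-fold.

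Throughout, a gene was called higher or lower in PPFP cells when its adjusted p was under 0.05 and its fold change over 2. Of the 10291 genes tested, 2026 were called, or 19.7%. These were 957 higher (9.3%) and 1069 lower (10.4%) genes. In 2019 of the 2026 the libraries of the groups did not overlap, and this was also so for 6475 genes, or 62.9%, of all those tested. With no fold limit, 5425 genes had an adjusted p under 0.05, of which 2708 were higher and 2717 lower. Changes of 2- to 4-fold made up 532 of the higher and 601 of the lower genes, those of 4- to 16-fold 259 and 268, and those over 16-fold 166 and 200. In 252 called genes a group was at the floor of at most 3 counts in every library, the EV group for 99 and the PPFP group for 153. A fold change of such a gene is given below as a bound against 3 counts in each library. Because RNA was taken from whole cultures, fewer cells that express a gene and less RNA per cell cannot be told apart.

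**Figure D1:**
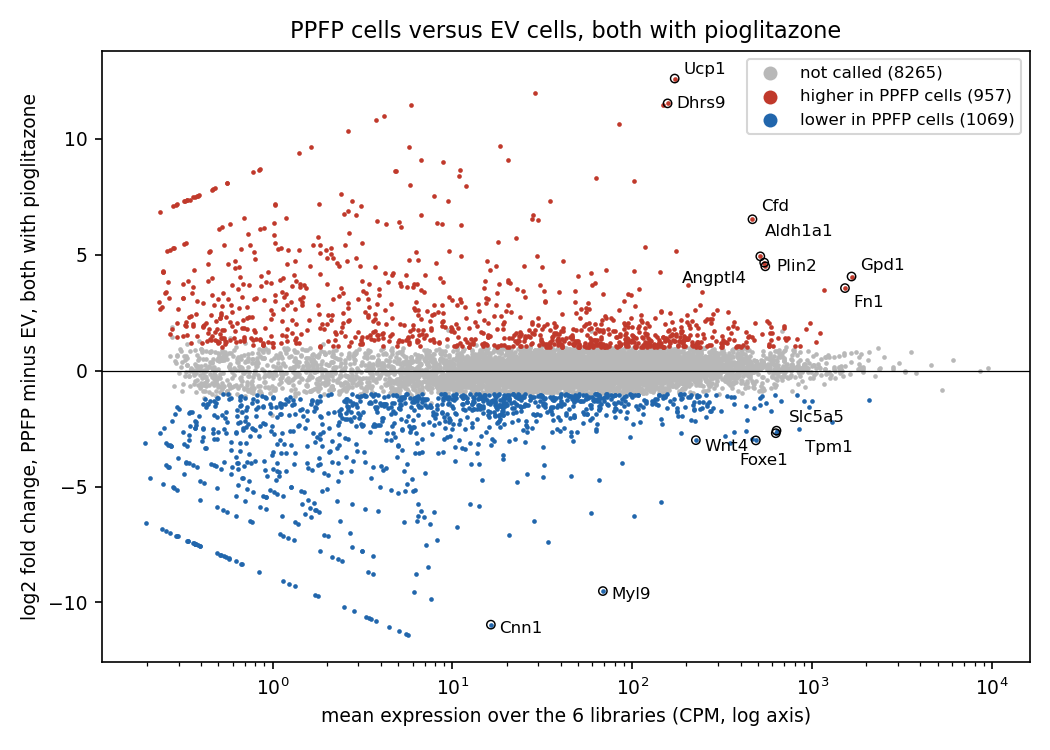
Each point is 1 of the 10291 tested genes, placed by its mean expression over the 6 libraries (CPM, log axis) and by its log2 fold change of PPFP minus EV cells, both with pioglitazone. Red points are the 957 genes called higher, blue points the 1069 called lower and grey points the 8265 not called, and circled genes such as Gpd1, Fn1 and Foxe1 combine a high level with a large change.

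The largest rises were in genes that were almost silent in EV cells. Ucp1, the uncoupling protein by which brown fat makes heat, was at 0.027, 0 and 0.144 CPM in EV cells and at 430, 309 and 293 CPM in PPFP cells (log2 fold change 12.60 ± 0.41, adjusted p = 2.5e-06, and 14.16 without EV library 3). Dhrs9, a short-chain dehydrogenase that oxidizes retinol and steroids, went from at most 0.179 CPM in EV libraries to 290, 328 and 322 CPM (log2 fold change 11.53 ± 0.22). Gulo, which makes the last step of vitamin C synthesis in the rat, went from at most 0.144 CPM to 216, 338 and 339 CPM (11.45 ± 0.35). The groups were separate in each of these genes. Fgfbp1, a secreted carrier of fibroblast growth factors, reached 231, 144 and 131 CPM, and Sult1b1, a sulfotransferase that acts on thyroid hormones among other phenols, reached 234, 192 and 185 CPM, with log2 fold changes of 10.63 ± 0.39 and 8.19 ± 0.17. Among genes with the EV group at the floor, Serpina3n, a secreted protease inhibitor, was at least 538-fold higher, and Reln, the extracellular guidance protein reelin, at least 339-fold higher.

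By absolute rise, genes that EV cells already expressed came ahead, with Gpd1 (described with the glycerol genes) and Fn1 first. Fn1, which encodes the matrix protein fibronectin, was at 253, 235 and 240 CPM in EV and 2320, 2990 and 3080 CPM in PPFP cells (log2 fold change 3.56 ± 0.15). Ndrg1, a gene induced by hypoxia and differentiation, was at 195, 236 and 153 against 1860, 2290 and 2250 CPM (3.48 ± 0.19).

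The largest falls were in genes of various roles. Myl9, a myosin regulatory light chain, was at 138, 185 and 88.6 CPM in EV cells and at 0.151, 0.224 and 0.166 CPM in PPFP cells (log2 fold change -9.51 ± 0.42, adjusted p = 5.7e-06). Cnn1, the smooth muscle calponin, was at 39.8, 33.3 and 24.9 CPM in EV cells and had at most 3 counts in each PPFP library, at least 288-fold lower. Among other large falls, the GTPase regulator gene Sipa1l2 was at 71.7, 80.6 and 51.2 against 0.151, 0.522 and 0.497 CPM (-7.38 ± 0.34), the membrane protein genes Tmem178a and Tmem163 fell by 7.11 and 6.73 on the log2 scale and Prrt1 by 7.51, and Chmp4c, of the membrane-cutting ESCRT machinery, was at least 134-fold lower. Tpm1, a tropomyosin, was at 1180, 1230 and 865 against 178, 157 and 160 CPM (-2.70 ± 0.15). A list of 30 tested actin and myosin genes, drawn up after these values were seen, held 9 members called lower and 6 called higher, with a median log2 fold change of -0.20. Members moved in both directions: the nonmuscle myosin heavy chain Myh9 fell (log2 fold change -1.41 ± 0.14), whereas Synpo2 (5.50) and Lmod1 (2.11) rose. Among the largest falls in absolute level, Ppp1r1b, a protein phosphatase inhibitor that is controlled by cyclic AMP, was at 2000, 2380 and 2030 against 442, 452 and 441 CPM (-2.23 ± 0.10), and the phosphate carrier Slc20a1 at 1380, 1430 and 1500 against 229, 243 and 255 CPM (-2.54 ± 0.09).

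**Figure D2:**
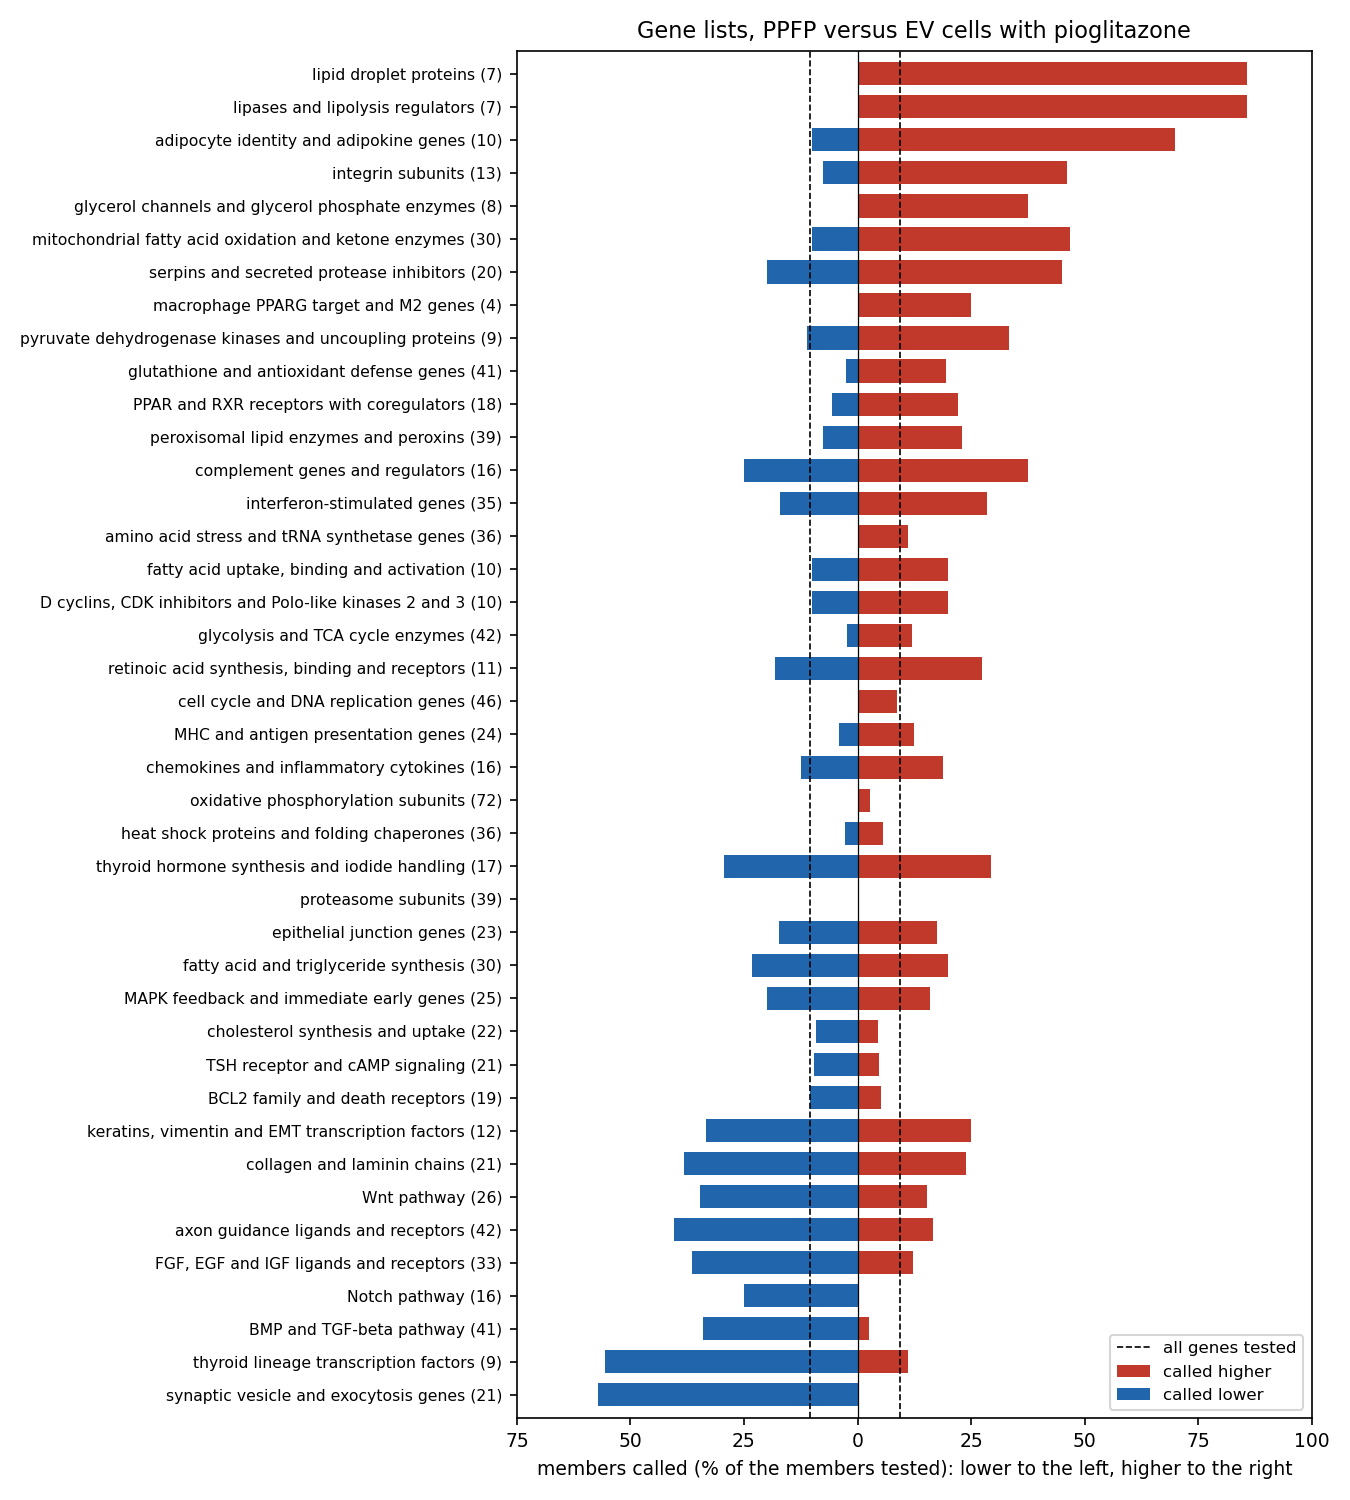
Bars show, for each gene list (number of tested members in parentheses), the percent of tested members called lower in PPFP cells (blue, to the left) and higher (red, to the right), both with pioglitazone. Dashed lines mark the shares over all tested genes, 10.4% lower and 9.3% higher: the lipid droplet, lipase and adipocyte lists reach farthest to the right and the synaptic vesicle and thyroid transcription factor lists farthest to the left.

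Lipid droplet proteins rose almost as a block. Of 7 tested members 6 were called higher and none lower, and the median log2 fold change was 2.97, against 0.01 over all genes tested. Plin2, which coats droplets in most cells, was at 42.9, 43.3 and 39.8 CPM in EV and 1030, 1060 and 1040 CPM in PPFP cells. The groups were far apart, and the log2 fold change was 4.66 ± 0.09 (adjusted p = 4e-07). Plin1, the perilipin of fat cells, was at the floor in EV cells and at 32.9, 46.9 and 42.6 CPM in PPFP cells, at least 379-fold higher. Cidec, which fuses small droplets into large ones, was likewise at the floor and reached 18.3, 23.6 and 23.9 CPM, at least 204-fold higher. Plin5, the perilipin of oxidative tissues, was at 1.84, 1.22 and 1.26 against 8.09, 12.1 and 13.2 CPM, and G0s2, an inhibitor of the main triglyceride lipase, at 61.3, 69 and 59.4 against 284, 435 and 434 CPM. Their log2 fold changes were 2.97 ± 0.27 and 2.63 ± 0.19. Fitm2, which helps droplets bud from the endoplasmic reticulum, was at 36, 40.2 and 36.6 against 122, 120 and 114 CPM (1.69 ± 0.08). The remaining tested member, the seipin gene Bscl2, was at 28.3, 26.1 and 33.1 against 23.2, 26.7 and 27.8 CPM, and its groups overlapped (-0.14 ± 0.12, adjusted p = 0.37).

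The enzymes that empty droplets rose beside the proteins that coat them. Of 7 tested lipases and lipolysis regulators, 6 were called higher and none lower (median log2 fold change 1.76). Triglyceride is cleaved in turn by the products of Pnpla2, Lipe and Mgll. Pnpla2 was at 141, 161 and 156 CPM in EV and 354, 436 and 420 CPM in PPFP cells (1.43 ± 0.11), Lipe, the hormone-sensitive lipase, at 16.4, 13.1 and 18.8 against 47.1, 57 and 55.7 CPM (1.76 ± 0.15), and Mgll, the monoglyceride lipase, at 85.2, 85.6 and 59.5 against 243, 276 and 269 CPM (1.80 ± 0.16). Each of these lipases had separate groups. Lipa, the lysosomal lipase, rose by a log2 fold change of 1.45 ± 0.07 and Ces2c, a carboxylesterase, by 5.10 ± 0.36 (5.90 without EV library 1). Abhd5, which activates the product of Pnpla2, was at 32.8, 32.3 and 29.3 against 43.2, 35.6 and 34.6 CPM (0.29 ± 0.11, adjusted p = 0.051). Angptl4, a secreted inhibitor of lipoprotein lipase and a standard PPAR target, was at 52.7, 51 and 37.8 against 1040, 1070 and 1030 CPM, a log2 fold change of 4.50 ± 0.15 (adjusted p = 3.1e-06).

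**Figure D3:**
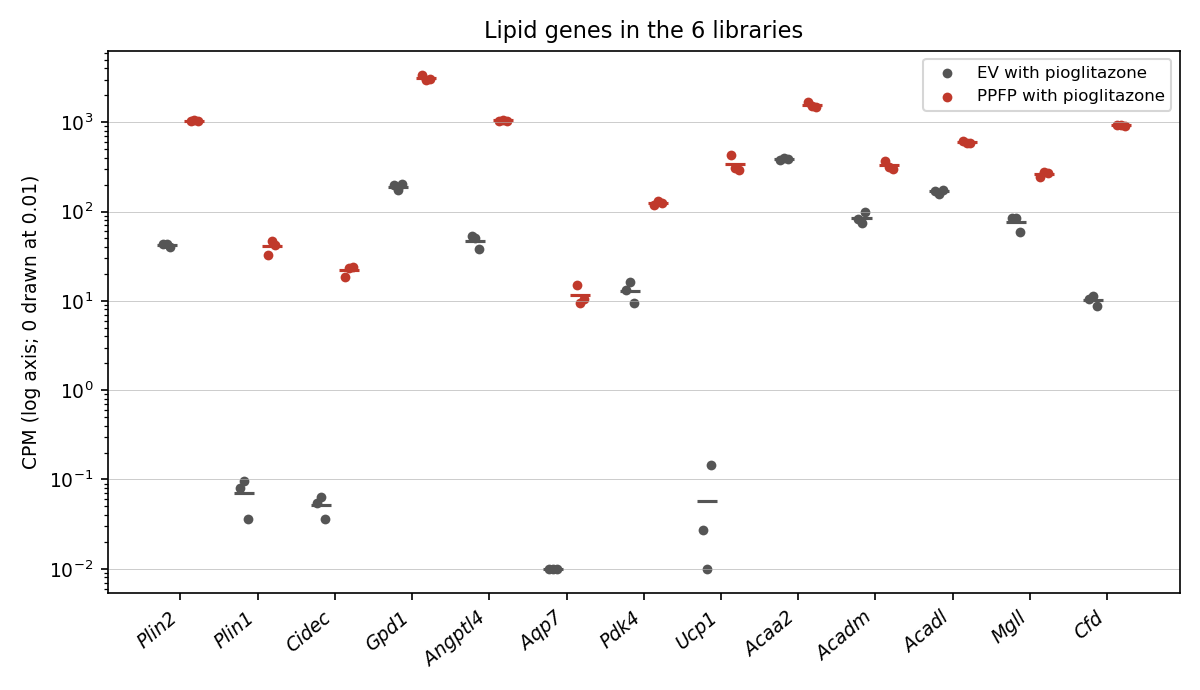
Points are the single libraries (3 EV in grey, 3 PPFP in red, all with pioglitazone) and dashes the group means of 13 lipid genes, in CPM on a log axis, with 0 drawn at 0.01. PPFP libraries lie above EV libraries for every gene shown, and Plin1, Cidec, Aqp7 and Ucp1 lie near or at 0 in EV cells.

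Glycerol handling rose at 3 of 8 tested members, with none lower. Gpd1, which links glycolysis to triglyceride by making glycerol 3-phosphate, was at 196, 172 and 202 CPM in EV and 3340, 3000 and 3010 CPM in PPFP cells (log2 fold change 4.06 ± 0.11, adjusted p = 1.3e-06). The glycerol channel Aqp7 had no count in the EV libraries and 15, 9.55 and 10.4 CPM in PPFP cells, at least 108-fold higher. A second channel, Aqp9, was at 0.297, 0.032 and 0.251 against 4.01, 4.92 and 4.54 CPM (4.51 ± 0.43). The glycerol kinase gene Gk was at 20, 20.3 and 21 against 37.2, 35.2 and 36.7 CPM, short of 2-fold (0.86 ± 0.08).

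Many genes of fatty acid oxidation in mitochondria rose. Of 30 tested members, 14 were called higher and 3 lower, and 21 were higher at an adjusted p under 0.05 with no fold limit (median log2 fold change 0.75). The acyl-CoA dehydrogenases for very long, long and medium chains, Acadvl, Acadl and Acadm, rose by 1.48 ± 0.07, 1.85 ± 0.08 and 1.97 ± 0.13. Acadm, for example, was at 83.4, 73.9 and 98.5 CPM in EV and 367, 315 and 302 CPM in PPFP cells. Acaa2, the thiolase at the end of the cycle, was at 379, 400 and 383 against 1680, 1520 and 1490 CPM (2.04 ± 0.08). Some transcripts for entry of fatty acids rose too, among them the carnitine transferases Cpt1b (1.23) and Cpt2 (1.28) and the carrier Slc25a20 (1.40). The electron acceptors Etfa (1.06, no longer over 2-fold without EV library 2) and Etfdh (1.34) rose as well. Oxct1, which starts the use of ketone bodies, fell and was at 192, 192 and 210 against 77.3, 72.5 and 68.4 CPM (-1.42 ± 0.08). Acadsb, the dehydrogenase for short branched chains, fell too (-2.67 ± 0.34), as did Hadh, which was under 1 CPM in EV cells and at the floor in PPFP cells.

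Peroxisomal genes changed in a smaller share. Of 39 tested members 9 were called higher (23.1% against 9.3% of all genes) and 3 lower (7.69% against 10.4%), with a median log2 fold change of 0.11. Crat, the carnitine acetyltransferase, was at 98.1, 79 and 127 CPM in EV and 279, 264 and 262 CPM in PPFP cells (1.43 ± 0.16), Scp2, a thiolase and lipid carrier, rose by 1.72 ± 0.12, and Phyh, which starts the breakdown of phytanic acid, by 2.85 ± 0.24. Pecr (-1.41 ± 0.09), a reductase of fatty acid elongation, and the transporter Abcd2 (-1.13 ± 0.16) fell. Acot2, a mitochondrial acyl-CoA thioesterase named here after its values were seen, was at 22.3, 27.5 and 19.9 against 101, 124 and 128 CPM (2.37 ± 0.16).

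Of 9 tested genes that set the use of pyruvate or uncouple respiration, 3 were called higher and 1 lower, and with at least 10 counts required in every library 1 was higher. Pdk4, a kinase that shuts pyruvate dehydrogenase, was at 13.3, 16.2 and 9.4 CPM in EV and 118, 131 and 126 CPM in PPFP cells (3.29 ± 0.19), and Pdp1, the phosphatase that opens it, fell from 107, 86.2 and 94.1 to 42.8, 39.7 and 41.1 CPM (-1.19 ± 0.10). Pdk1, Pdk2 and Pdk3 were not called (0.25 ± 0.15, 0.75 ± 0.10 and 0.03 ± 0.08). Of the uncoupling proteins, Ucp3 had no count in EV cells and was at least 69.8-fold higher, and Ucp2, the common form, was at 319, 258 and 214 against 407, 537 and 551 CPM (0.95 ± 0.18, adjusted p = 0.0041), short of 2-fold. Pc, pyruvate carboxylase, rose from 102, 97.5 and 108 to 580, 585 and 569 CPM (2.53 ± 0.08), and Aco1, the cytosolic aconitase, by 2.07 ± 0.11. These last were among 5 higher (11.9% against 9.3% of all genes) and 1 lower of 42 tested genes of glycolysis and the TCA cycle. The lower gene was the neuronal enolase Eno2 (-1.64 ± 0.26), and 2 were lower without EV library 3. Of 72 tested subunits of oxidative phosphorylation 2 were called, both higher, or 1 without EV library 2, when Ndufa12 lost its call, while 25 were higher and 4 lower at an adjusted p under 0.05, with a median log2 fold change of 0.20.

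Synthesis of fatty acids and triglyceride split within its own list. Of 30 tested members 6 were called higher and 7 lower, with a median of -0.14. Dgat2, which makes the last step of triglyceride synthesis, was at 50.3, 57.9 and 40.5 CPM in EV and 245, 287 and 286 CPM in PPFP cells (2.49 ± 0.15). Elovl5, an elongase of polyunsaturated fatty acids, rose from 87.2, 78 and 79.8 to 298, 295 and 285 CPM (1.87 ± 0.08), and the malic enzyme Me1, a source of NADPH, by 1.32 ± 0.22. The elongases of saturated and monounsaturated chains went the other way: Elovl6 was at 25.7, 14.9 and 28.9 against 5.93, 6.3 and 7.12 CPM (-1.81 ± 0.25) and Elovl7 at 188, 193 and 166 against 36.1, 39.6 and 38.2 CPM (-2.23 ± 0.09). The desaturase Scd fell by 2.65 on the log2 scale. For uptake and activation of fatty acids, 2 of 10 tested members were called higher and 1 lower, the latter share close to the 10.4% of all genes. The higher count was 1 without EV library 2 or PPFP library 2 or 3, and the lower count 0 without EV library 1 and 2 without any 1 PPFP library. The transporters Slc27a1 and Slc27a4 had log2 differences of -0.22 ± 0.13 and -0.76 ± 0.09, and the acyl-CoA synthetase Acsl1 one of -0.21 ± 0.09. Cholesterol synthesis and uptake had 1 higher and 2 lower of 22 tested genes, shares of 4.55% and 9.09% against 9.3% and 10.4% of all genes.

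Receptors and their partners changed in part. Of 18 tested PPAR and RXR genes and coregulators, 4 were called higher, Pparg included, and 1 lower. Rxrg, one of the obligate partners of PPARG, was at the floor in EV cells and at 5.14, 5.67 and 3.97 CPM in PPFP cells, at least 45.8-fold higher. Rxra, its widespread relative, was at 19.6, 21.4 and 17.4 against 7.48, 8.95 and 7.82 CPM (-1.24 ± 0.13). Cebpa, which works with PPARG in fat cell formation, rose from 18.8, 12.8 and 18.1 to 109, 85 and 88.3 CPM (2.53 ± 0.17), and the coregulator Nrip1 rose by 1.56. Nr1h3, the oxysterol receptor LXR alpha, rose from 3.08, 2.53 and 1.87 to 8.88, 15.8 and 15.2 CPM (2.44 ± 0.29), whereas its target Abca1 was at 249, 268 and 117 against 104, 151 and 158 CPM, with overlapping groups (-0.59 ± 0.32, adjusted p = 0.16).

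Genes that define fat cells were not raised evenly. Of 17 adipocyte genes in the counts, 10 passed the filter on low counts and were tested. Among those tested 7 were called higher and 1 lower, with a median log2 fold change of 5.52. With at least 10 counts required in every library, 3 were called higher and 0 lower. The higher count thus rests in part on genes near 0 in EV cells, such as Plin1, Cidec, Aqp7 and Ucp1, which passed through their counts in PPFP cells. Cfd, the adipokine adipsin, was at 10.4, 11.3 and 8.79 CPM in EV and 920, 932 and 912 CPM in PPFP cells (6.53 ± 0.13, adjusted p = 4e-07). Adipoq, the adiponectin gene, was at 2.59, 2.46 and 0.574 against 1.85, 2.95 and 2.38 CPM, and its groups overlapped (0.36 ± 0.49, adjusted p = 0.56). Slc2a4, the insulin-responsive glucose transporter of fat and muscle, fell from 1.94, 1.89 and 2.22 CPM to the floor, at least 17.8-fold lower. Of the 8 fixed adipocyte markers, Lep, Retn and Adrb3 were at the floor in all 6 libraries, and the summed level of the 8 was 9.44 to 13.9 CPM in EV and 973 to 1010 CPM in PPFP cells, most of it Cfd. Fgf21, a fasting hormone and PPAR target, was at 0.135, 0.032 and 0.0718 CPM in EV cells and at 2.68, 22.3 and 22.3 CPM in PPFP cells, so that PPFP library 1 lay well below the other two (7.54 ± 1.10, adjusted p = 0.0011). Without EV library 1 its value was 8.18.

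Retinoid genes included some of the steepest changes. Aldh1a1, which makes retinoic acid from retinal, was at 39.1, 29.4 and 31.7 CPM in EV and 1040, 996 and 947 CPM in PPFP cells (4.93 ± 0.14, adjusted p = 1.5e-06). With Dhrs9 above and the alcohol dehydrogenase Adh1, which was at least 5.16-fold higher, it was among 3 higher members of 11 tested, and 2 were lower (median 0.03), or 1 and 1 with at least 10 counts required in every library. The lower members were the retinol transporter Stra6 (-2.66 ± 0.37) and Cyp26b1, which breaks down retinoic acid (-1.17 ± 0.40, adjusted p = 0.041), both near or under 1 CPM in EV cells. Cyp26b1 lost its call by DESeq2, with the replicate block, with PPFP libraries 2 and 3 averaged and without EV library 1 or 2 or PPFP library 1 or 3, with adjusted p of 0.052 to 0.11. Of the receptors, Rara (0.91 ± 0.08) and Rarg (-0.40 ± 0.16) stayed within 2-fold.

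The iodide transporter fell, and genes that supply hydrogen peroxide rose. Of 17 tested genes of hormone synthesis and iodide handling, 5 were called higher and 5 lower, with a median of 0.03, and without EV library 1 only 3 were called higher. Tg, which encodes thyroglobulin, the protein scaffold of the hormone, was at 10600, 8350 and 7380 CPM in EV and 8320, 8440 and 8560 CPM in PPFP cells, with overlapping groups (-0.03 ± 0.16, adjusted p = 0.89). Slc5a5, the sodium iodide symporter, fell from 1130, 949 and 1180 to 150, 190 and 192 CPM (-2.59 ± 0.14, adjusted p = 1.5e-05). Its groups did not overlap. Iyd, which recovers iodide, fell from 2.65, 3.39 and 2.73 to 0.68, 0.261 and 0.397 CPM (-2.68 ± 0.32), Dio1, a deiodinase, from 303, 237 and 246 to 122, 106 and 105 CPM (-1.21 ± 0.12), and the apical anion channel Ano1 by 1.37 on the log2 scale. In the other direction, the oxidase Duox2 rose from 19.7, 15 and 21.7 to 185, 176 and 175 CPM (3.28 ± 0.14), and its maturation factor Duoxa2, which lies beside it, from 16.6, 17.6 and 18.7 to 182, 171 and 162 CPM (3.31 ± 0.08). Duoxa1 (1.61 ± 0.18) and the apical anion exchanger Slc26a4 (1.97) rose with them, Slc26a4 without a call when EV library 1 was left out (1.69, adjusted p = 0.07). The TSH receptor gene Tshr was at 310, 348 and 297 against 514, 428 and 417 CPM, within 2-fold (0.54 ± 0.11, adjusted p = 0.0045).

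Of 9 tested members of the thyroid lineage list, 1 was called higher and 5 lower, with a median of -1.04, and without EV library 3 only 3 were called lower. Besides transcription factors the lower members included the receptors Notch1 (-1.84) and Fgfr2 (-1.76). Foxe1, a forkhead factor of thyroid formation, was at 904, 858 and 835 CPM in EV and 110, 102 and 105 CPM in PPFP cells (-3.01 ± 0.08, adjusted p = 1.3e-06). Hhex, a homeobox factor of early thyroid formation, was at 521, 390 and 616 against 194, 249 and 242 CPM (-1.12 ± 0.18), and without EV library 3 it was no longer over 2-fold lower (adjusted p = 0.0027). Nkx2-1, the remaining master factor, was at 353, 341 and 295 against 161, 177 and 183 CPM, separate but within 2-fold (-0.89 ± 0.10, adjusted p = 3.6e-04). The thyroid hormone receptor Thrb rose from 11.1, 11.7 and 10.6 to 44.9, 43.6 and 44.5 CPM (2.02 ± 0.08). The other such receptor, Thra, fell from 59.3, 52.5 and 65.7 to 24.9, 30.7 and 28.8 CPM (-1.04 ± 0.12). Thra lost its call without EV library 3 or PPFP library 1. Of 21 tested genes of the TSH and cyclic AMP pathway, 1 was higher (4.76% against 9.3% of all genes) and 2 were lower (9.52% against 10.4%), with 2 higher when EV library 3 was left out. The adenylate cyclase Adcy1 went from at most 0.162 CPM to 16.3, 20.4 and 19.3 CPM (7.33 ± 0.26), and the phosphodiesterases Pde4b (-1.11 ± 0.15) and Pde7b (-1.49 ± 0.14) fell.

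**Figure D4:**
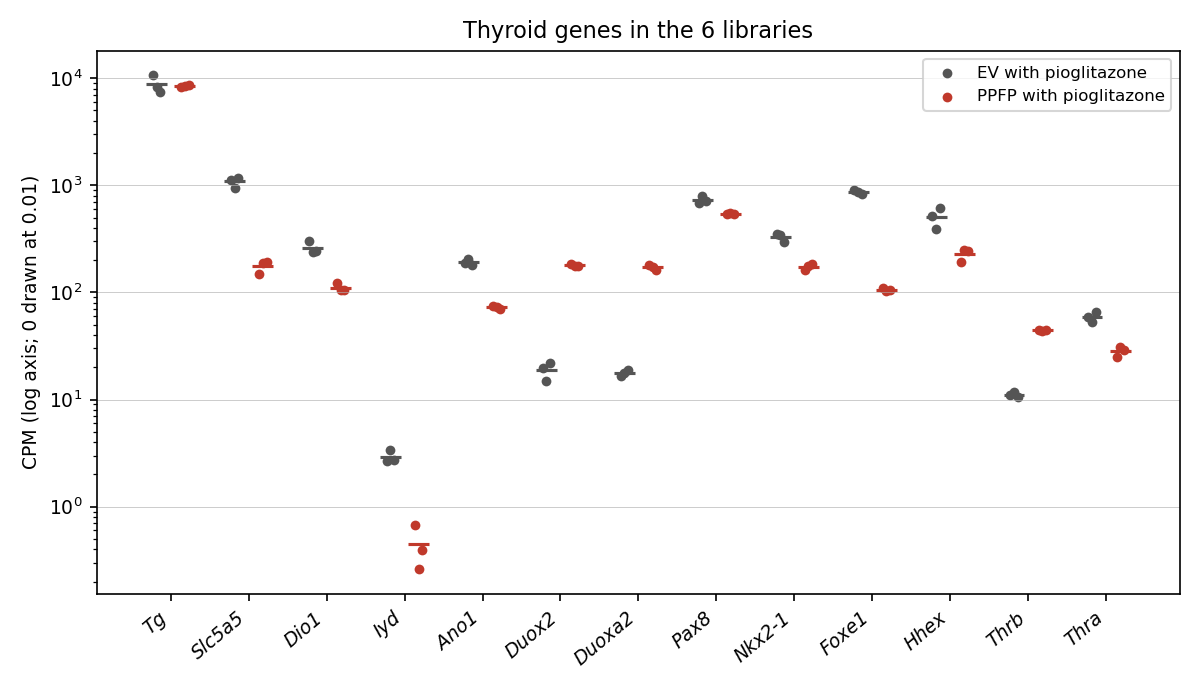
Points are the single libraries (3 EV in grey, 3 PPFP in red, all with pioglitazone) and dashes the group means of 13 thyroid genes, in CPM on a log axis. Groups overlap for Tg, PPFP libraries lie above EV libraries for Duox2, Duoxa2 and Thrb, and they lie below for the other 9 genes.

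Antioxidant genes leaned upward. Of 41 tested members 8 were called higher and 1 lower (2 without PPFP library 3), with a median of 0.37. Gstm2, a glutathione transferase with close relatives among which reads can be split, was at 10, 5.12 and 5.2 CPM in EV and 77.2, 68.9 and 67.6 CPM in PPFP cells (3.41 ± 0.27). Mgst1, a microsomal transferase, rose from 284, 293 and 319 to 1230, 1060 and 1010 CPM (1.91 ± 0.10), and Sod1, the cytosolic superoxide dismutase, from 271, 203 and 350 to 738, 650 and 632 CPM (1.32 ± 0.19). The secreted dismutase Sod3 fell from 945, 1020 and 915 to 347, 407 and 390 CPM (-1.30 ± 0.10). Of 36 tested genes of the amino acid stress list 4 were called higher, or 11.1% against 9.3% of all genes tested, and 0 lower (1 under 9 of the alternatives, DESeq2 and the replicate block among them). They were Phgdh (1.42 ± 0.09) and Psph (2.38 ± 0.18), which make serine, Shmt2 (1.08 ± 0.09, or 0.95 and no call with library size alone as the scaling), which converts it to glycine, and the amino acid transporter Slc38a2 (1.47 ± 0.17). In a list of 39 tested proteasome subunits none was called by edgeR's quasi-likelihood test, or 1 without EV library 3. At an adjusted p under 0.05 with no fold limit 12 were higher and 1 lower. The subunit Psmb8, outside that list, was called higher, though not without EV library 2.

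Cell cycle genes had a median log2 fold change of 0.56. Of 46 tested members 4 were called higher, or 8.7% against 9.3% of all genes tested, and none lower. The most changed, Cdk2, a kinase that drives entry into DNA replication, was at 96.3, 64.6 and 116 CPM in EV and 547, 375 and 363 CPM in PPFP cells (2.24 ± 0.25). The replication factors Mcm10 (1.39 ± 0.35) and Prim1 (1.14, or 0.95 without EV library 2) rose too. The count of called members depended on the EV libraries, being 21 without EV library 3 and 2 without EV library 2, and it was 8 with the replicate block. Outside the list, Cdc7, a kinase that fires replication origins, fell from 16.3, 9.4 and 18.1 CPM to the floor, at least 129-fold lower. Among regulators outside the cycle engine, the Polo-like kinases Plk3 and Plk2 rose by 3.36 ± 0.14 and 1.91 ± 0.11, with Plk3 at 3.16, 3.23 and 3.19 against 28, 36.3 and 32.3 CPM. Cdkn1a, the CDK inhibitor p21, was at 307, 362 and 295 against 120, 163 and 159 CPM (-1.09 ± 0.15), and without PPFP library 1 its value was -0.96, within 2-fold. Ccnd1, cyclin D1, was at 1110, 1370 and 931 against 889, 906 and 903 CPM (-0.31 ± 0.14, adjusted p = 0.11). Of 19 tested BCL2 family and death receptor genes, 2 were called lower (10.5% against 10.4% of all genes) and 1 higher (5.26% against 9.3%). The median was -0.02, and 2 were higher without EV library 2 or PPFP library 1. Of the pro-apoptotic BH3-only genes, Bmf fell by 1.77 and Bcl2l11 by 1.23 on the log2 scale.

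Early response genes of growth signaling moved both ways, 4 higher and 5 lower of 25 tested, with 3 lower when PPFP library 1 was left out. The shares over all 6 libraries were 16% higher and 20% lower, against 9.3% and 10.4% of all genes. Myc was at 37.5, 48.1 and 28 CPM in EV and 105, 166 and 160 CPM in PPFP cells (1.95 ± 0.25), and Spry1, a feedback inhibitor of receptor tyrosine kinases, at 15.6, 17 and 13.1 against 113, 89.7 and 85.1 CPM (2.68 ± 0.14). The AP-1 members Jund and Fosl1 fell by 1.61 and 2.86 on the log2 scale.

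Several growth factor receptors fell. Among 33 tested FGF, EGF and IGF ligands and receptors, 12 were called lower (36.4% against 10.4% of all genes) and 4 higher (12.1% against 9.3%), with a median of -0.72. Fgfr2, an epithelial FGF receptor, was at 491, 505 and 443 CPM in EV and 138, 141 and 139 CPM in PPFP cells (-1.76 ± 0.08), Fgfr1 at 347, 340 and 337 against 121, 131 and 136 CPM (-1.37 ± 0.08), and Fgfr3 at 42.7, 46.5 and 43.5 against 14.5, 10.1 and 11.4 CPM (-1.86 ± 0.13). The groups were separate for each receptor. Igfbp5, a secreted binder of insulin-like growth factors, fell from 726, 694 and 795 to 91.5, 134 and 135 CPM (-2.59 ± 0.17). The docking proteins Irs1 (-1.68) and Irs2 (-1.05, or -0.95 without PPFP library 1) were lower, and the ligands Hbegf (1.38 ± 0.14) and Fgf1 (1.21 ± 0.20) higher.

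Developmental pathways were represented more by lower than by higher genes. In the BMP and TGF-beta list 14 of 41 tested members were called lower and 1 higher (median -0.47). Bmp4 was at 7.4, 7 and 4.31 CPM in EV cells and at the floor in PPFP cells, at least 55-fold lower. Inha, the inhibin alpha subunit, fell by 5.57 on the log2 scale (-7.07 without PPFP library 3) and the antagonist Chrd by 3.08, while the receptor Bmpr1b rose by 3.67 ± 0.20. Smad7 and Id3, which are induced by the pathway, fell by 1.92 and 1.34. In the Wnt list 9 of 26 were lower (34.6% against 10.4% of all genes) and 4 higher (15.4% against 9.3%). Wnt4 was at 373, 290 and 543 against 44.8, 49.9 and 53 CPM (-3.00 ± 0.23), and the secreted antagonist Wif1 fell by 4.27 on the log2 scale. Higher were the ligand Wnt7a (6.32 ± 0.38, or 7.03 without EV library 2), the coreceptor Lrp6 (2.12 ± 0.12) and Axin2 (1.87 ± 0.19), a feedback target of the pathway. Of 16 tested Notch pathway genes 4 were lower and none higher, and Notch1 itself went from 75.9, 55.9 and 69.4 to 15.3, 19.1 and 20.5 CPM (-1.84 ± 0.16).

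Axon guidance genes, which also act in epithelia, held 17 lower and 7 higher of 42 tested. Sema6b was at 25.4, 25.7 and 23.1 CPM in EV and 0.34, 0.634 and 0.364 CPM in PPFP cells (-5.76 ± 0.22), the netrin receptor Unc5b fell by 4.78 on the log2 scale, and Ephb6 was at least 48.5-fold lower. The netrin gene Ntn1 went the other way, from the floor to 11, 12.3 and 11.4 CPM, at least 107-fold higher. Synaptic vesicle and exocytosis genes were the list with the largest share lower, 12 of 21 tested with none higher, and a median of -1.51. The count table held 58 members of this list. The higher count was 1 without EV library 2 or with all 12 libraries in 1 fit. It was 2 without PPFP library 1 or with no low-count filter. Dnm1, a dynamin of vesicle retrieval, was at 27.7, 25.8 and 21.4 against 1.89, 3.32 and 2.91 CPM (-3.17 ± 0.22), and the synaptotagmin Syt5 at 37.6, 29.8 and 43 against 3.82, 4.55 and 4.7 CPM (-3.05 ± 0.17). Another set that was seen only after the values were known was that of motile cilium genes, 12 lower and 1 higher of 22 tested, with a median of -1.35. In it the ciliary regulator Rfx2 fell by 2.06 on the log2 scale and the dynein assembly factor Dnaaf3 by 2.74, whereas Tekt1 rose by 2.47.

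Immune genes changed without a common direction. Of 35 tested interferon-stimulated genes 10 were called higher and 6 lower. The guanylate-binding proteins Gbp2 and Gbp5 rose, Gbp2 from 14.2, 17.9 and 15.9 to 42.4, 65.4 and 67.5 CPM (1.90 ± 0.20) and Gbp5 by 3.82 ± 0.43, as did Mx1 (2.05) and Rsad2 (1.71, adjusted p = 0.052 without EV library 1). The oligoadenylate synthetases were lower, with Oas1a at -3.03 ± 0.49, Oas2 at -2.49 and Oasl2 at -1.47 ± 0.22. In the complement list 6 of 16 were higher and 4 lower: C1r, which starts the classical pathway, was at 75.8, 68.5 and 58.6 against 283, 320 and 306 CPM (2.19 ± 0.12), C3 rose by 1.83, and C2 fell by 2.86 on the log2 scale. Among 16 tested cytokines, Il34, a ligand of the CSF1 receptor, went from at most 0.135 CPM to 12.9, 14.1 and 13 CPM (6.72 ± 0.19), and the secreted phosphoprotein Spp1 fell by 6.07 (-6.98 without PPFP library 3). Serpins and other secreted inhibitors had 9 higher and 4 lower of 20, but most of the higher members were under 1 CPM in EV cells, and with at least 10 counts required in every library 2 were higher. Serpinb5, the epithelial maspin gene, was at least 203-fold and the liver-type inhibitor Fetub at least 90.2-fold higher.

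Matrix and adhesion genes moved in both directions. Of 21 tested collagen and laminin chains, 8 were called lower and 5 higher. Col5a1, a fibrillar collagen, was at 101, 69.1 and 94 CPM in EV and 2.42, 3.92 and 4.57 CPM in PPFP cells (-4.56 ± 0.26), and Col8a1 fell by 3.09 on the log2 scale. Col7a1, the anchoring fibril collagen, rose from 2.24, 1.41 and 0.718 to 17.7, 38.4 and 43.9 CPM (4.51 ± 0.49). Integrin subunits were higher at 6 of 13 and lower at 1, the collagen receptor Itga11 (-3.09), while with at least 10 counts required in every library 1 was higher and 0 lower. The lower count was 2 without EV library 3 or any 1 PPFP library. Itga7, a laminin receptor of muscle, was at 0.405, 0.512 and 0.287 against 75, 145 and 158 CPM (8.30 ± 0.42), and Itga1, a collagen receptor, at 5.02, 4.99 and 5.35 against 43.7, 47.3 and 45.8 CPM (3.18 ± 0.09). Epithelial junction genes had 4 higher and 4 lower of 23 tested (17.4% each, against 9.3% and 10.4% of all genes, median -0.06). Keratins with vimentin and related factors had 3 higher and 4 lower of 12. The tight junction gene Cldn12 (1.13 ± 0.07) and the desmosome gene Pkp2 (1.21 ± 0.09) rose, Cldn12 without a call when library size alone was the scaling, as did Krt20, at least 20.2-fold, and Krt23 (2.46 ± 0.28). The kidney-type cadherin Cdh16, which thyroid follicular cells also express, fell from 113, 124 and 86.7 to 15.2, 18.7 and 18.3 CPM (-2.60 ± 0.16), and Krt8 went from 3.83, 3.58 and 3.37 CPM to the floor, at least 31.7-fold lower. Vim, the mesenchymal filament gene, was at 458, 374 and 601 against 455, 429 and 424 CPM (-0.10 ± 0.16, adjusted p = 0.62), and Zeb1 differed by -0.09 ± 0.11.

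Families were also counted by symbol stem, for stems with at least 10 tested members. Those named here were picked for large shares lower or higher, beside 10.4% lower and 9.3% higher of all genes tested. Semaphorins (Sema) had 7 lower and 2 higher of 15, collagens (Col) 7 and 2 of 17, orphan G protein-coupled receptors (Gpr) 7 and 1 of 18, regulators of G protein signaling (Rgs) 4 and 1 of 10, and the ADAM proteases (Adam) 4 and 0 of 10. The higher shares of Col (11.8%) and Rgs (10%) were near that of all genes. The stems with the larger shares higher included the hydroxysteroid dehydrogenases (Hsd) with 5 higher and 2 lower of 13, the aldehyde dehydrogenases (Aldh) with 4 and 1 of 13, and the histones (Hist) with 5 and 0 of 16. Histone transcripts mostly lack poly(A) tails and come from near-identical copies, so their counts are uncertain.

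The same contrast was made in cells given vehicle in place of the ligand. Without pioglitazone 1496 of 10264 tested genes, or 14.6%, were called, 746 higher and 750 lower. The contrasts share no libraries. Of the 2026 genes called with pioglitazone, 1308 were called in the same direction without it and 1 in the opposite direction. A further 717 were not called without it, and of the 631 of these that were tested there, 450 had an adjusted p under 0.05. The difference between the contrasts was tested by itself, as an interaction over the 12 libraries, and 97 of 10482 genes, or 0.925%, were called: 46 with a more positive and 51 with a more negative PPFP effect under pioglitazone. Libraries of the same number deviated together within each line (correlations of 0.432 to 0.774 between the libraries with and without pioglitazone), although PPFP library 3 correlated more with a library of another number (0.535), and with a replicate block within each cell line 269 genes were called, 102 more positive and 167 more negative, with all 97 among them. Of the 97, 89 were also called with pioglitazone, 44 as higher with a more positive effect, 44 as lower with a more negative effect and 1, Gbp2, as higher with a more negative effect.

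Of the droplet and glycerol lists, 1 gene each was called in the interaction, Plin2 and Gpd1. For Plin1, Cidec and Aqp7, with at most 4 counts in each EV library, that test rests on few counts. Plin2, with the lowest p of the interaction calls, was at a mean of 42 CPM in EV and 282 CPM in PPFP cells without pioglitazone, and the PPFP effect was larger with it by 1.88 ± 0.10 on the log2 scale (adjusted p = 8.2e-06). For Gpd1 the means without the drug were 184 and 931 CPM, and the effect grew by 1.69 ± 0.12 (adjusted p = 5.5e-05). Angptl4 had means of 38.2 and 181 CPM without the drug (2.22 ± 0.25), Pdk4 of 10.3 and 35.9 CPM (1.46 ± 0.24) and Acaa2 of 379 and 675 CPM (1.17 ± 0.11). In these genes PPFP cells were already above EV cells with vehicle and rose further with the ligand. In others the means of the lines were close with vehicle. Phospho1, a phosphatase of phosphocholine, was at 64 and 60.9 CPM with vehicle and at 62, 75 and 53.9 against 285, 263 and 255 CPM with pioglitazone (2.14 ± 0.17). Acot2 was at 23.2 and 26.8 CPM with vehicle (2.13 ± 0.24), and Mgll at 78.4 and 103 CPM (1.37 ± 0.24). Crat was at 104 and 113 CPM with vehicle (1.28 ± 0.24, adjusted p = 0.016), and lost the call without EV library 1 of the pioglitazone group (1.27, adjusted p = 0.05) or PPFP library 2 (1.26, adjusted p = 0.068) or 3 (1.29, adjusted p = 0.052) of the vehicle group. The thyroid oxidase pair grew as well, Duoxa2 by 1.16 ± 0.15 and Duox2 by 1.06 ± 0.17, although Duox2 was at 0.93 without EV library 2 with pioglitazone and 0.97 without EV library 3 with vehicle. Not every large change was larger with the drug by this test: for Cfd the means with vehicle were 9.88 and 710 CPM and the effect differed by 0.33 ± 0.14 (adjusted p = 0.31), and for Ucp1 they were 0.0677 and 86.7 CPM (2.33 ± 1.35, adjusted p = 0.55), a difference that rests on EV libraries of 0 to 4 counts. Within PPFP cells alone Ucp1 was called higher with pioglitazone than with vehicle, at means of 344 and 86.7 CPM (1.99 ± 0.21, adjusted p = 0.0023). So was Plin1, at means of 40.8 and 6.39 CPM (2.68 ± 0.16, adjusted p = 4.1e-04). Aqp7 (11.7 and 0.5 CPM, 4.53 ± 0.24) and Cidec (22 and 7.99 CPM, 1.46 ± 0.13) were called higher there as well. Fitm2 (0.92), Plin5 (0.87), G0s2 (0.82) and Aqp9 (-0.47) were not called there.

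On the lower side, Fam163a, a membrane protein gene, had means of 62.3 and 16.8 CPM with vehicle and stood at 56.6, 56.9 and 70.3 against 3.59, 3.51 and 3.54 CPM with pioglitazone (interaction -2.22 ± 0.15, adjusted p = 5.5e-05). Prelp, a matrix proteoglycan, was at 176 and 147 CPM with vehicle (-1.45 ± 0.13). Scx, the tendon transcription factor scleraxis, was at 69.6 and 35.8 CPM with vehicle and at 68.9, 51.1 and 66.4 against 9.6, 9.96 and 9.34 CPM with pioglitazone (-1.74 ± 0.15). Slc20a1 and Ppp1r1b, both above, differed by -1.41 ± 0.13 and -1.21 ± 0.14. For Slc5a5 the means with vehicle were 1130 and 336 CPM, and the further difference of -0.87 ± 0.16 (adjusted p = 0.016) was within 2-fold. Foxe1, at 877 and 131 CPM with vehicle, had an interaction of -0.30 ± 0.12 (adjusted p = 0.3).

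**Figure D5:**
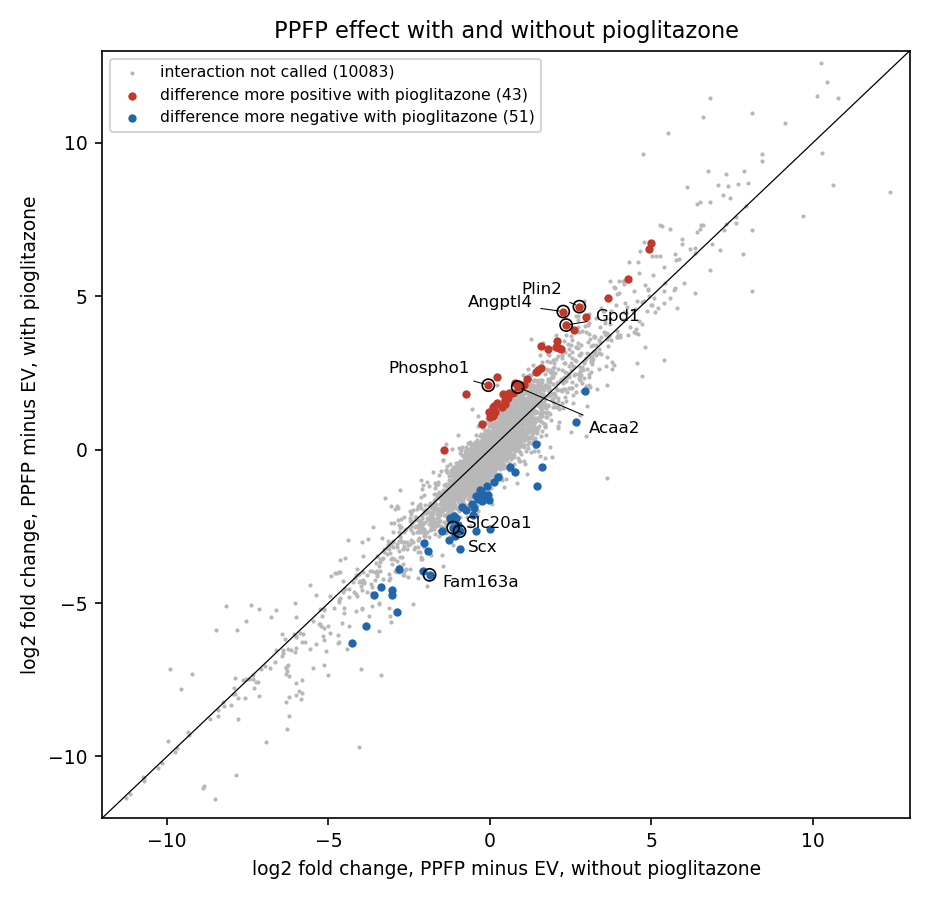
Each of 10177 genes tested in all fits is placed by its log2 fold change of PPFP minus EV cells without (x) and with (y) pioglitazone, and the line marks equal values. Red and blue points are the 43 and 51 drawn genes whose PPFP effect was called more positive or more negative with pioglitazone; Plin2, Gpd1, Angptl4, Acaa2 and Phospho1 lie above the line and Fam163a, Scx and Slc20a1 below it.

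PPARG and RXR bind a direct repeat of AGGTCA-like sites with 1 base between them, so the promoters of the changed genes were read for that arrangement. The motif searched was AGGNCANAGGNCA on both strands, in RefSeq windows of 300 bases that end 50 bases after the start site (GRCr8, a build other than that of the counts, used here for names and sequence only). It was found in 139 of 33469 windows, or 0.415%. Among genes matched by symbol it was in 4 of 697 genes called higher (0.574%), 5 of 741 called lower (0.675%), 13 of 6261 not called (0.208%) and 0 of 60 of the interaction genes. The 4 higher genes and the lower gene whose site has the full repeat are shown to let their sites be compared, with the motif in capitals, read on the strand of the gene.
Ceacam1: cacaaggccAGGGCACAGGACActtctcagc
Cyp2d1: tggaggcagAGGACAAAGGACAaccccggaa
Slc6a12: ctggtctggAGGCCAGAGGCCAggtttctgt
Tinagl1: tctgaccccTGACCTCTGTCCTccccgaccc
Fads6: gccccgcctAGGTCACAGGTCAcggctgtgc
The windows are chr1:90187743-90188042 (Ceacam1, minus strand), chr7:115793381-115793680 (Cyp2d1, minus strand), chr4:156257268-156257567 (Slc6a12, plus strand), chr5:147807214-147807513 (Tinagl1, minus strand, motif on the opposite strand) and chr10:101037111-101037410 (Fads6, minus strand). Ceacam1, an adhesion molecule that promotes insulin clearance, rose by a log2 fold change of 2.18 ± 0.26, and Cyp2d1, a cytochrome P450, by 3.28 ± 0.16. Slc6a12, the betaine transporter, rose by 5.20 ± 0.33 and the matrix protein gene Tinagl1 by 1.29 ± 0.11, while the desaturase-like Fads6 was at least 5.98-fold lower. The shares were not tested against each other, and a match here is a string of letters, not a bound site.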

How the data were processed

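RNA from 12 cultures (1 µg each, Illumina TruSeq, which does not mark strand, so antisense partners share reads) was sequenced as paired ends. Per the labels and methods, the authors aligned reads to rat build rn4 with TopHat2 2.0.11, counted them with HTSeq 0.6.1p1 in intersection-strict mode and deposited raw counts per gene symbol. Here, with edgeR 4.0.16 in R 4.3.3, genes were filtered with filterByExpr, counts scaled by TMM, and groups compared with edgeR's quasi-likelihood test on the 6 libraries (12 for the interaction). p-values were adjusted by the Benjamini-Hochberg method. The study's methods name edgeR with tagwise dispersion, and its exact test was kept as an alternative. Errors are standard errors of log2 fold changes, with n = 3 libraries per group. CPM were computed from the counts with TMM scaling over 12 libraries. A gene with at most 3 counts in each library of a group was taken as at the floor. The biological coefficient of variation was 0.144.

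Replicate numbers were checked: deviations of same-numbered EV and PPFP libraries with pioglitazone correlated at -0.259, 0.256 and -0.408, so these were not paired. The labels call the samples independent experiments; p-values measure the spread between them only. On simulated data of this comparison with 200 genes changed 4-fold among 10291, 196 (98%) were recovered with 1 false call. For the interaction 192 (96%) were recovered with 5 false calls. The simulation gave every gene the same dispersion and drew the libraries independently. It therefore checks that the code works, and does not measure recovery of smaller changes or false calls in libraries that deviate together.

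Named genes were Pparg and Pax8, the largest and lowest changes with separate groups and a mean level of 1 CPM or more, the highest bounds, the largest shifts in CPM, the called members with the largest and lowest changes of each list (all members of short lists), the interaction genes with the lowest p and the stems with the largest shares called. Other names were added after their values were seen, as were the contractile and cilium lists. The comparison and the gene lists were chosen with earlier results of these data known. Further alternatives were DESeq2 1.42.0, other scalings and filters, a replicate block, all libraries in 1 fit and leaving out each library. A few genes that the rule names are not reported here. The deposited peak lists of the fusion were not used here.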

Additional observations from a re-analysis of the deposited data

Results flagged for a closer look

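The PPFP effect differed with and without pioglitazone, by the interaction test at an adjusted p under 0.05 and over 2-fold, for 33 of the genes examined by name. Each value is the log2 fold change of PPFP over EV cells with pioglitazone minus that without it. Among lipid and energy genes it was 1.88 for Plin2, 1.69 for Gpd1, 2.22 for Angptl4, 1.37 for Mgll, 1.46 for Pdk4, 1.17 for Acaa2, 1.13 for Acad11, 1.28 for Crat, 2.13 for Acot2, 1.24 for the glycerol phosphate acyltransferase Agpat9 and 2.14 for Phospho1. It was 1.08 for Cebpa, 1.24 for Aldh1a1 and 1.39 for the retinoic acid receptor Rarb, and for the thyroid oxidase genes 1.16 (Duoxa2) and 1.06 (Duox2). Genes of signaling and secretion gave 1.29 for Plk3, 1.17 for Lrp6, 1.25 for the ETS factor Etv4, 1.30 for the receptor tyrosine kinase Mertk, 1.70 for Il34 and 1.23 for the cargo receptor Surf4.

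Negative values were -1.21 for Ppp1r1b, -1.41 for Slc20a1, -1.74 for Scx, -1.01 for Syt5, -2.22 for Fam163a, -1.01 for the hedgehog coreceptor Cdon, -1.45 for Prelp, -1.63 for the kinase Dclk1, -1.25 for the neuronal protein gene Dpysl2, -1.44 for Oasl2 and -1.06 for Gbp2. Gbp2 was the gene called higher with pioglitazone whose difference was smaller with it: its mean in PPFP cells was 115 CPM with vehicle. Several of these calls were lost under alternatives: Rarb lost it in 13 of 19, the replicate block among them, Gbp2 in 10, Il34 (18 alternatives), Oasl2 and Syt5 in 7, Cdon in 5, Cebpa and Crat in 3 and Duox2 in 2. Rarb was not called in either direction with pioglitazone, and was lower in PPFP cells with vehicle, at 0.502 against 1.37 CPM.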

How the results depend on the processing

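No gene called with pioglitazone changed direction under any alternative. Its count of 2026 was 2050 by the exact test, 2029 by DESeq2, 2012 with the replicate block (958 higher and 1054 lower) and 1967 to 2241 with each library left out (1967 without EV replicate 1). Library size alone as the scaling moved the median log2 fold change from 0.01 to -0.12 and the share higher among called genes from 47.2% to 39.7%. With at least 10 counts in every library the count was 1407, and without pioglitazone 983 in place of 1496, since that filter removes genes that are near 0 in a group. Under it the higher members fell from 7 to 3 for adipocyte genes, 3 to 1 for glycerol genes, 7 to 4 for axon guidance, 3 to 1 for keratins and 4 to 2 for Wnt genes and for epithelial junctions, and the lower members from 9 to 4 for contractile, 12 to 6 for cilium and 4 to 2 for complement genes. The 97 interaction calls became 269 with the replicate block within each cell line, 139 by DESeq2 and 52 to 105 with each library left out: 64 without EV replicate 1 and 59 without PPFP replicate 2 with pioglitazone, 58 and 52 without PPFP replicates 2 and 3 with vehicle. The replicate block across lines gave 98. Of the 276 genes examined by name and called with pioglitazone, 0 to 12 lost the call under an alternative. Genes under 1 CPM rest on few counts.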

Other observations

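Genes that lie next to each other were seen to move together in places, and the runs below were picked after their values were known. In the RefSeq gene order of GRCr8, 9314 tested genes could be placed, and 14 runs of at least 4 neighbouring tested genes were all called in the same direction, 9 higher and 5 lower. Untested genes between them were skipped, and the number of runs to be met without any link between neighbours was not computed. Beside Angptl4 lie Kank3, Rps28, Ndufa7 and Cd320, with log2 fold changes of 3.07 ± 0.16, 1.13 ± 0.11, 1.18 ± 0.07 and 1.51 ± 0.10. Rps28, a ribosomal protein gene, lost its call with library size alone as the scaling. The droplet gene G0s2 lies in a run that includes Hsd11b1 (1.28 ± 0.17), the cortisol-activating enzyme, Lamb3 (1.69 ± 0.26) and Camk1g (2.28 ± 0.28).

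The S100 calcium-binding genes S100a4, S100a6, S100a11 and S100a10 form another run. S100a4 was at 0.81, 0.448 and 0.718 CPM in EV and 50.7, 63.3 and 63.4 CPM in PPFP cells (6.50 ± 0.21), and the other three rose by 2.63 ± 0.16, 1.93 ± 0.35 and 1.53 ± 0.16. With vehicle S100a4 was at 0.689 and 94.8 CPM. The transporter genes Slc6a13 and Slc6a12 lie between Usp18 (1.88 ± 0.19) and Iqsec3 (4.20 ± 0.19): Slc6a13, a carrier of the transmitter GABA and taurine, was at the floor in EV cells and at 12.9, 14.3 and 12.8 CPM in PPFP cells, at least 124-fold higher. A run of type II keratins, Krt81, Krt75, Krt72 and Krt76, rose from near 0 to at most 4.84 CPM. On the lower side a run held the synaptotagmin Syt5, the cilium gene Dnaaf3 (-2.74 ± 0.30) and the troponins Tnni3 (-2.67) and Tnnt1 (-3.50).

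Klf9, a glucocorticoid-induced Krüppel-like factor, fell by 1.61 on the log2 scale. Ret, the receptor tyrosine kinase, was at 6.48, 8.44 and 8.22 CPM in EV and 0.113, 0.112 and 0.431 CPM in PPFP cells (-5.04 ± 0.40, or -6.04 without PPFP library 3).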
